A study of Arabidopsis thaliana with 8 samples.

Results

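The genes described here are 105 of the 33977 genes measured in young Arabidopsis thaliana floral buds, chosen for transcripts that every library of the line pSTK::amiRNACWIN24 (4-3) held at well under their level in every wild-type (WT) library. They were chosen from the measured values themselves. The mean over the WT libraries had to be 2 RPKM or more (reads scaled to transcript length and to the mapped reads of the library, so a level per length), and the lowest WT value had to be more than 4 times the highest value in the line. Among the 17414 genes with such a WT mean, 112 met the ratio, which is 0.643%. The rule leaves out 7 genes by name and all genes with plastid or mitochondrial IDs. Of the 112, this removed STK, RALFL8, AGP6, DIR1, STP9 and STP6, which are 6 of the named genes, and 1 plastid gene. AGP11, the other gene named, did not meet the ratio. Genes whose WT libraries spread widely can miss the rule with a larger mean difference than most members have. Because the rule used this contrast, the levels of the members in the 2 genotypes are given as a description, with no test.

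Buds of floral stages 8 to 10 were pooled, and total RNA was sequenced from 4 biological replicates of WT and 4 of the line, called amiRNACWIN24 below. The construct is driven by the STK promoter, taken from SEEDSTICK, which helps to specify ovules, and it makes an artificial microRNA whose name points to cell wall invertases 2 and 4. These enzymes split sucrose outside the cell. A single line stood for the construct, and the stated interest was the start of ovule growth. Each library had 22.5 to 26.7 M reads on genes, as worked back from the smallest RPKM steps. With limma, 50.4% of the 19082 genes tested differed between the genotypes at an adjusted p under 0.05, with 21.0% lower and 29.4% higher in amiRNACWIN24 (3998 and 5611 genes). The excess of higher genes depended on the scaling, since with median-of-ratios scaling 5247 genes were lower and 5251 higher. In 18.4% of the tested genes every WT library was above every amiRNACWIN24 library.

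Several of the families described below are known from pollen. Inside the anther the tapetum, a nurse tissue, feeds the microspores and makes the wall and coat of the grain. The haploid male gametophyte then switches on its own late genes, among them secreted cysteine-rich and RALF peptides, arabinogalactan proteins, pectin enzymes, and pollen isoforms of actin regulators, proton pumps and aquaporins. These serve the growth of the pollen tube after landing on the stigma. The MADS box proteins of the MIKC* class are known as regulators of this late programme and bind a form of the CArG box.

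The member means ran from 2.02 to 421 RPKM in WT, with a median of 10.99 RPKM. In amiRNACWIN24 they ran from 0 to 71.3 RPKM, with a median of 0.805 RPKM. The WT mean was a median of 11.9 times the amiRNACWIN24 mean over the 97 members with any read in the line, and the median difference of log2(RPKM + 0.5), a scale that shrinks the change of low genes, was -2.77. The median over all genes tested was 0.07. In every amiRNACWIN24 library 45 members stayed under 1 RPKM and 8 were listed at 0. The name "nearly lost" is thus apt for the low members and less so for the abundant ones, since the highest kept 71.3 RPKM. For several of those listed at 0 the name is uncertain. They overlap another gene and differ in the authors' deposited table, as given below. limma called 104 of the 105 lower, beside the 21.0% of all tested genes, and nothing is read from that count because the rule used the same values.

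**Figure D1:**
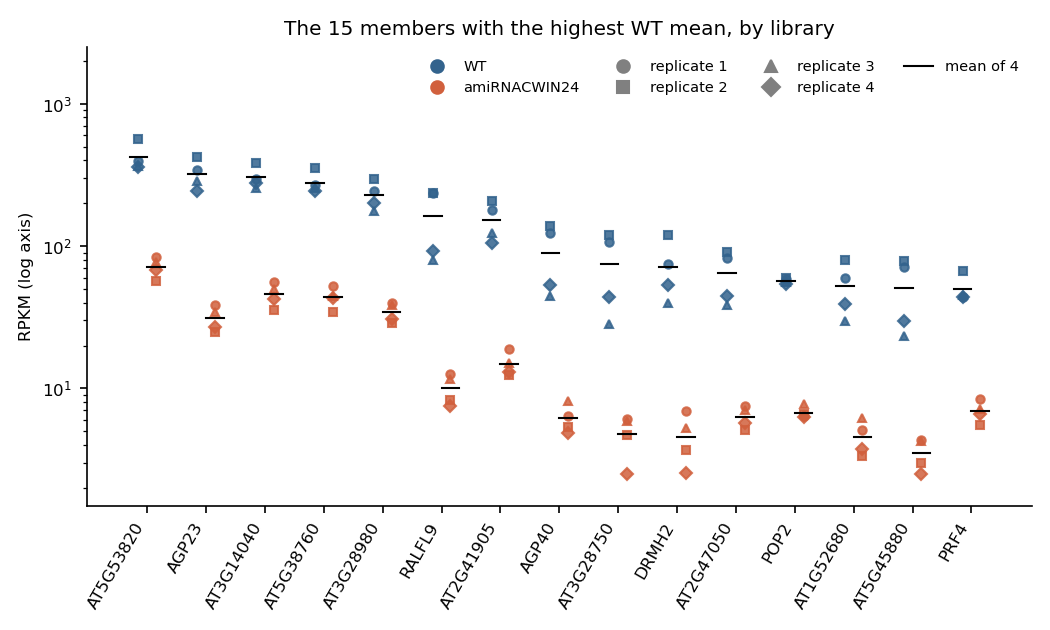
RPKM on a log axis for the 15 members with the highest WT mean, with 1 point per library (blue WT, orange amiRNACWIN24, marker shape for the replicate number) and a bar at the mean of 4. The groups are apart by the rule, and the plot shows how far the WT points spread, from POP2 with nearly one level to AT3G28750 with a 4.26-fold range.

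The most abundant member was AT5G53820 (chr5:21853348-21854117, TAIR10), a late embryogenesis abundant (LEA) protein of the kind that protects cells in drying tissue. It was at 398, 560.1, 365 and 359 RPKM in WT replicates 1 to 4 and at 84.0, 56.6, 77.0 and 67.7 RPKM in amiRNACWIN24 replicates 1 to 4. WT replicate 2 was the highest library and the other WT libraries lay close together. Its means were 421 ± 94.6 and 71.3 ± 11.9 RPKM (SD, n = 4 each), a 5.90-fold difference that was among the smaller ones of the 105. Of the 86 genes annotated as LEA proteins 6 were members, with WT means from 19.7 to 421 RPKM. AT4G13230 stood out among them in its spread, with 54.1, 65.7, 13.4 and 21.4 RPKM in WT and 1.95, 1.18, 2.02 and 0.467 RPKM in amiRNACWIN24, so that WT replicate 2 was 4.90 times WT replicate 3. The other LEA members were AT5G38760, AT1G52680, UNE15 and AT2G33690. Of 41 tested LEA genes that were not members 11 fell, 3 rose and 27 did not pass, and their median log2 difference was -0.11.

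Arabinogalactan proteins are heavily glycosylated proteins of the cell surface and wall. AGP23 (chr3:21384146-21384605) was at 341, 419.7, 285 and 243 RPKM over the WT replicates and 38.6, 25.01, 34.7 and 27.1 RPKM over those of amiRNACWIN24. AGP40 (chr3:7308504-7308962), a short arabinogalactan peptide of pollen, was at 123, 139, 44.5 and 52.9 RPKM in the WT libraries, against 6.35, 5.37, 8.15 and 4.87 RPKM in amiRNACWIN24. In AGP40, but not in AGP23, WT replicates 1 and 2 were more than 2 times replicates 3 and 4. Of 24 other arabinogalactan genes tested 8 fell and 16 did not pass, with a median log2 difference of -0.36. Among the 8 were AGP6 and AGP11, left out by name, at log2 differences of -3.97 and -2.72. AGP6 thus fell further than either member, which were at -3.33 (AGP23) and -3.61 (AGP40). AGP31, the highest of the 24 in WT, had 523 ± 183 and 409 ± 70.3 RPKM in the 2 genotypes (limma adjusted p = 0.417).

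A pectin enzyme and an inhibitor that may act on pectin enzymes, both by annotation, were among the most abundant members. Pectin is the gel of the cell wall that is softened as a tube grows. AT3G14040, annotated as a pectin lyase-like protein, was at 297, 383, 255 and 277 RPKM in WT replicates 1 to 4 and 56.3, 35.4, 49.9 and 42.7 in amiRNACWIN24. Its relative AT3G07850 was at 421, 493, 328 and 372 and 82.5, 57.6, 77.1 and 66.3 RPKM and lay just outside the rule, with a ratio of lowest WT to highest amiRNACWIN24 of 3.98. AT2G47050, an inhibitor of invertases or pectin methylesterases by its annotation, had 82.3, 91.4, 38.5 and 44.8 RPKM in WT and 7.48, 5.12, 7.01 and 5.67 RPKM in amiRNACWIN24. Over the other 53 tested pectin lyase-like genes 14 fell and 10 rose, so a low level was not general in that family. Of 38 other tested genes of the inhibitor family 9 fell, 7 rose and 22 did not pass.

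RALF peptides are secreted signals that receptor kinases read at the cell surface, and RALF4 is known to keep the pollen tube intact. RALFL9 (chr1:22717060-22717610) was at 236, 237, 79.9 and 92.5 RPKM over the WT replicates and 12.6, 8.24, 11.6 and 7.49 RPKM over those of amiRNACWIN24. RALFL4 was at 14.1, 18.1, 5.83 and 6.83 RPKM in the WT libraries, against 1.09, 0.663, 1.098 and 0.611 RPKM in amiRNACWIN24. Both were about 3 times higher in WT replicate 2 than in WT replicate 3. RALFL9 overlaps AT1G61565 on the other strand, which was at 0 in all 8 libraries, and the strand setting of the counting is not given in the sources used here. Among the 13 tested RALF genes that were not members 7 fell and 6 did not pass. They include RALFL8, left out by name, and RALFL19, a partner of RALF4 in pollen, which had 3.42 ± 2.63 RPKM in WT and 0.249 ± 0.0769 RPKM in amiRNACWIN24 (limma adjusted p = 0.00200).

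The largest groups among the members were families of small secreted cysteine-rich proteins. There were 8 LCR genes (low-molecular-weight cysteine-rich, defensin-like peptides), 7 SCRL genes (named for likeness to SCR, the pollen ligand of self-incompatibility in Brassica) and 7 genes of the DUF26 secretory family, which carry a cysteine-rich repeat. These 22 genes were low even in WT, at a mean of 2.08 to 30.0 RPKM. In amiRNACWIN24 the highest single value among them was 3.24 RPKM. LCR17 led them with 49.5, 52.1, 6.87 and 11.6 RPKM in WT and 1.15, 0.473, 1.37 and 0.305 RPKM in amiRNACWIN24. LCR33 had 18.6, 23.9, 6.56 and 8.73 RPKM in WT and 0.634, 0.190, 0.640 and 0.0917 RPKM in amiRNACWIN24, and with 10.2 its ratio of lowest WT to highest amiRNACWIN24 value was among the larger ones. Both show the same order in WT, with replicates 1 and 2 well above 3 and 4.

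The family size matters for how these counts read. Of 12 LCR genes with a WT mean of 2 RPKM or more 8 were members, as were 7 of 10 SCRL genes and 7 of 16 DUF26 genes. Of the 4 tested LCR genes that were not members 2 fell and 2 did not pass. LCR32, at a mean of 11.6 ± 10.99 RPKM in WT and 0.129 ± 0.110 RPKM in amiRNACWIN24, fell as far as many members (limma adjusted p = 0.00292). The other 3 were abundant in both genotypes. LCR68 fell from 161 ± 22.4 to 112 ± 8.60 RPKM (adjusted p = 0.00336), and LCR69, with 808 ± 150.4 RPKM in WT and 742 ± 114 RPKM in amiRNACWIN24, did not pass (adjusted p = 0.554). All 10 DUF26 genes that were tested and not members fell, and their median log2 difference was -1.93. In AT4G20540, 1 of a run of adjacent genes of the same exon length on chromosome 4, reads could have been split among near-identical copies, so its own level is uncertain.

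LCR11 (chr4:6975051-6976014) met the rule through 1 library. Its values were 12.7, 0.238, 0.0618 and 0.0586 RPKM in WT replicates 1 to 4 and 0 in all amiRNACWIN24 libraries. In reads, these WT values were 226, 4, 1 and 1. Without WT replicate 1 its WT mean would be far under 2 RPKM, and it was the only member that limma did not call lower. The authors' deposited table gives it a log2 fold change of -7.21 with an FDR of 1.91e-05.

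Other secreted proteins followed the peptides. SPH15, a homologue of the S1 self-incompatibility protein of poppy, had 28.1, 36.3, 6.27 and 11.1 RPKM in WT and 0.759, 0.477, 0.971 and 0.205 RPKM in amiRNACWIN24, and SPH12 was the other member of that family. AT5G45880 and AT1G29140 encode Ole e 1-like proteins, named for an olive pollen allergen. AT5G45880 was at 71.6, 78.2, 23.2 and 29.8 RPKM in WT replicates 1 to 4 and 4.34, 2.98, 4.26 and 2.52 in amiRNACWIN24. The family itself did not share this pattern, since of 11 tested Ole e 1 genes that were not members 3 fell, 1 rose and 7 did not pass. AT3G28980 and AT5G61720, of the DUF1216 family, had WT means of 228 and 47.5 RPKM and amiRNACWIN24 means of 34.5 and 4.38 RPKM, and 4 of the other 5 tested genes of that family fell.

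Calcium sensors with EF-hand motifs gave 4 members, PC1, CML28, CML17 and CML25. PC1, annotated as a pollen calcium-binding protein, was at 35.8, 45.7, 24.0 and 24.9 RPKM over the WT replicates and 4.46, 2.73, 3.32 and 3.203 RPKM over those of amiRNACWIN24. CML28 was at 32.5, 31.2, 8.08 and 11.4 RPKM in the WT libraries, against 0.898, 0.774, 1.23 and 0.321 RPKM in amiRNACWIN24. The WT range was 4.03-fold in CML28 and 1.48-fold in CML25, so members of one family differed in how much WT libraries varied. Of the other 50 tested EF-hand genes 13 fell, 12 rose and 25 did not pass.

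In several families of general cell function only some of the isoforms were members. Profilin binds actin monomers, and PRF4 and PRF5 are the isoforms known from pollen. PRF4 was at 44.1, 66.8, 45.3 and 44.2 RPKM in WT replicates 1 to 4 and 8.35, 5.55, 7.14 and 6.56 in amiRNACWIN24, and PRF5 at 39.6, 54.1, 32.2 and 32.7 and 5.68, 4.40, 4.796 and 3.98 RPKM. The log2 difference was -2.76 ± 0.15 in PRF4 and -2.92 ± 0.16 in PRF5 (SE, n = 4 per group), while in PRF1, PRF2 and PRF3, named PRF1, PFN2 and PRF3 in the annotation, it was -0.57 ± 0.08, -0.55 ± 0.10 and -0.58 ± 0.11. All 4 tested profilin genes that were not members passed limma as lower, at adjusted p-values from 1.87e-04 to 0.00180. The split is therefore one of size and not of direction.

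Actin depolymerizing factors cut and disassemble actin filaments, and ADF7 and ADF10 are those of mature pollen. ADF7 was at 14.95, 19.7, 14.8 and 15.7 RPKM over the WT replicates and 3.05, 2.61, 2.52 and 2.56 RPKM over those of amiRNACWIN24. ADF10 was at 26.8, 40.8, 28.4 and 27.2 RPKM in the WT libraries, against 6.55, 4.65, 4.91 and 4.50 RPKM in amiRNACWIN24. The groups are far apart in both genes, and the WT libraries lay within 1.52-fold. Of the 7 other tested genes of the family 3 fell and 4 did not pass, and ADF3, the highest of them, had 196 ± 18.3 RPKM in WT and 153 ± 7.24 RPKM in amiRNACWIN24 (limma adjusted p = 0.00697).

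The vacuolar proton pump and the aquaporins of the tonoplast intrinsic protein (TIP) family gave the same picture. VHA-E2 and VATG3 encode isoforms of the E and G subunits in the stalk of the pump. VHA-E2 was at 30.9, 52.5, 29.2 and 34.2 RPKM in WT replicates 1 to 4 and 6.41, 3.25, 5.36 and 3.30 in amiRNACWIN24. VATG3 was at 25.5, 34.5, 21.1 and 18.8 RPKM over the WT replicates and 3.47, 2.29, 2.94 and 2.91 RPKM over those of amiRNACWIN24. The more abundant E1 isoform, listed as TUF, was at a mean of 175 ± 17.3 RPKM in WT and of 146 ± 5.98 RPKM in amiRNACWIN24. Its log2 difference was -0.25 (limma adjusted p = 0.0322). Of the 4 tested E and G genes that were not members, TUF included, 3 fell and 1 did not pass. The aquaporin TIP1;3 had 17.3, 24.9, 14.2 and 15.6 RPKM in WT and 2.92, 1.74, 2.54 and 1.58 RPKM in amiRNACWIN24. TIP5;1, the other gene of the TIP family known from pollen, was lower by less than the rule asks. It was at 10.4, 11.5, 11.5 and 10.13 RPKM in WT and 3.21, 2.07, 2.42 and 2.84 RPKM in amiRNACWIN24. Of the 6 tested TIP genes that were not members, TIP5;1 included, 3 fell and 3 did not pass. GRF12, a 14-3-3 adaptor protein, had WT and amiRNACWIN24 means of 23.4 ± 9.70 and 1.97 ± 0.673 RPKM, while of 9 other tested 14-3-3 genes 4 fell and 5 did not pass.

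**Figure D2:**
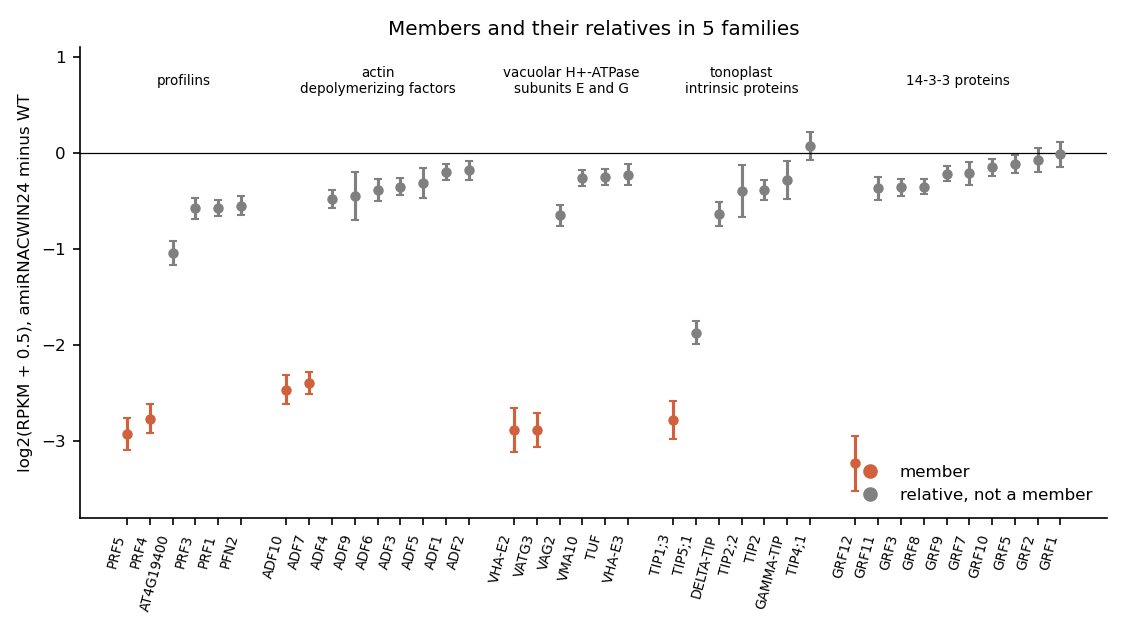
Difference of log2(RPKM + 0.5), amiRNACWIN24 minus WT, with its standard error (4 libraries per genotype), for the tested genes of 5 families; members in orange, relatives in grey. Members lie between -3.23 and -2.39, and every relative lies above them, with TIP5;1 nearest at -1.87.

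Single members touch other steps of reproduction. POP2 is the GABA transaminase whose loss is known to disturb pollen tube guidance in the pistil. It was the steadiest member, at 58.3, 59.6, 56.0 and 54.2 RPKM in the WT libraries, against 6.39, 6.65, 7.73 and 6.29 RPKM in amiRNACWIN24. POP2 overlaps AT3G22210 on the other strand, which was at 79.3 ± 15.2 and 56.4 ± 2.65 RPKM in the 2 genotypes. MGH3, a histone H3 of the male gamete, was at 8.53, 9.46, 5.59 and 5.15 RPKM in WT replicates 1 to 4 and 1.04, 0.597, 0.786 and 0.578 in amiRNACWIN24, with WT replicates 1 and 2 again the higher. RIC3, an effector of ROP GTPases that acts on calcium at the tip of the tube, was at 5.52, 6.80, 3.35 and 4.02 RPKM over the WT replicates and 0.424, 0.555, 0.715 and 0.466 RPKM over those of amiRNACWIN24. DRMH2, a dormancy and auxin associated protein by its annotation, was at 74.97, 119, 39.8 and 53.3 and 6.90, 3.68, 5.23 and 2.56 RPKM.

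The WT libraries did not give the members 1 common level. WT replicate 2 was the highest WT library in 88 of the 105 members and in 28.2% of 17234 other genes with a WT mean of 2 RPKM or more. WT replicate 3 was the lowest in 78 members and in 9.99% of the other genes. In 77 members (73.3%) replicates 1 and 2 were both above 3 and 4, against 14.9% of other genes. The highest WT library was a median of 2.33 times the lowest in the members and 1.29 times in other genes. The rule sets a minimum for the WT mean and for the lowest WT value, and no limit on the highest.

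The sums by library show the same order. Added over the 105 members, the level was 3932, 4916, 2591 and 2747 RPKM in WT replicates 1 to 4. It was 474, 322, 437 and 339 RPKM in amiRNACWIN24 replicates 1 to 4. The lowest WT sum was more than 5 times the highest amiRNACWIN24 sum. The rule by itself puts these sums more than 4 times apart, so nothing is read from that gap. Markers of the tapetum and pollen wall ran the other way within WT, with sums of 361, 249, 871 and 596 RPKM in replicates 1 to 4. Their part in the members' pattern was not tested.

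**Figure D3:**
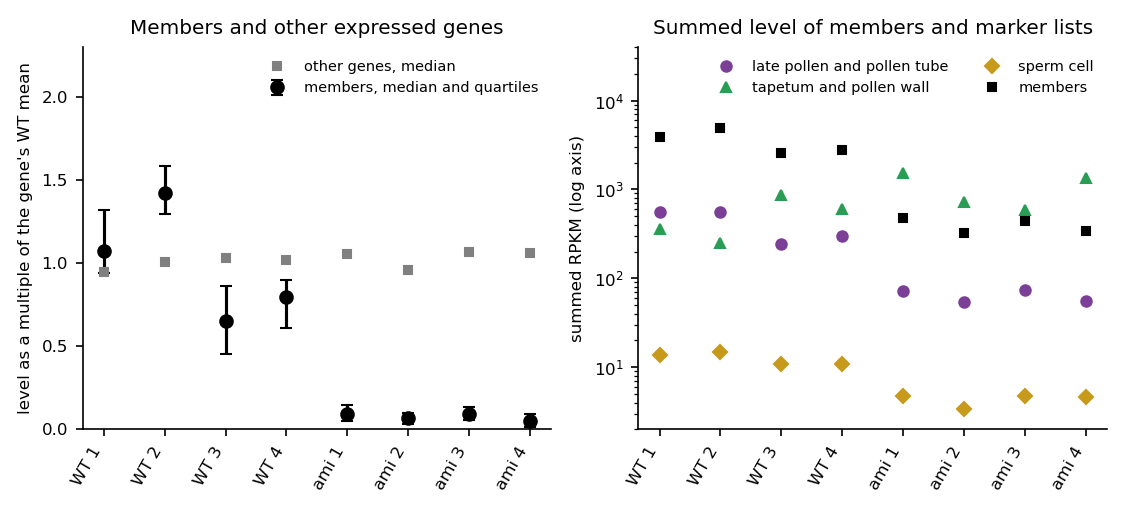
Left, the level in each library as a multiple of each gene's WT mean, as the median and quartiles of the 105 members (black) and the median of other genes with a WT mean of 2 RPKM or more (grey). Right, summed RPKM on a log axis for the members and 3 marker lists, of which the late pollen list includes 3 members and the sperm cell list 1; the members run from 2591 to 4916 RPKM in WT and from 322 to 474 RPKM in amiRNACWIN24, while tapetum sums overlap between the genotypes.

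Not all members varied in WT. In 14 members, POP2, ADF7, CML25, BGLU13 and AT5G38760 among them, the highest WT library was under 1.5 times the lowest. The LCR genes were at the variable end, with a median WT range of 5.17-fold. SCRL and DUF26 genes, at 2.40-fold and 2.80-fold, lay near the 2.33-fold of all members. Profilins and actin depolymerizing factors were at the steady end, at 1.60-fold and 1.43-fold.

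Lists of cell type markers give the setting in which the members were measured. Of 25 late pollen and pollen tube genes, RALF4, TIP1;3 and AGP40 are members, whose calls the rule fixed. Of the other 22 genes 16 were tested, and 11 fell, 1, ANX1, rose and 4 did not pass. Over all genes tested 21.0% fell. The sum of these 22 ranged from 177 to 395 RPKM in WT and from 46.8 to 61.2 RPKM in amiRNACWIN24, with no overlap. VGD1 and PPME1, with WT means of 138 ± 38.2 and 81.1 ± 49.4 RPKM, gave most of the WT sum. It therefore says little of the low genes of the list. AGL104 had the smallest p, falling from 6.95 ± 0.747 to 1.65 ± 0.158 RPKM (limma adjusted p = 8.12e-06), and TIP5;1 fell from 10.9 ± 0.714 to 2.64 ± 0.497 RPKM (adjusted p = 8.69e-06). The median log2 difference of the 16 was -1.43, beside 0.07 for all genes tested.

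The tapetum list went the opposite way. Of its 15 tested genes 9 rose, 0 fell and 6 did not pass, with a median log2 difference of 1.31. ACOS5, an enzyme of the outer pollen wall, rose from 29.7 ± 20.5 to 90.8 ± 37.2 RPKM (limma adjusted p = 0.00681), and EMS1, a receptor kinase that specifies the tapetum, from 9.94 ± 1.94 to 14.4 ± 1.504 RPKM (adjusted p = 0.00730). The tapetum sums, 249 to 871 RPKM in WT and 588 to 1541 RPKM in amiRNACWIN24, overlap. The count of tapetum genes that rose lay between 4 and 13 when single libraries were left out and was 3 with WT replicates 1 and 2 both left out. All 9 pollen coat genes, which the tapetum is known to supply, fell, with sums of 5858 to 8971 RPKM in WT and 2184 to 3559 RPKM in amiRNACWIN24.

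Of 3 tested sperm cell markers that are not members 1 fell, DUO1, the regulator of sperm cell fate, from 1.89 ± 0.370 to 0.619 ± 0.152 RPKM (limma adjusted p = 7.60e-04); MGH3 on this list is a member. The sums of the ovule and integument list overlapped at 146 to 184 RPKM in WT and 151 to 189 RPKM in amiRNACWIN24. AG gave the largest part of them, at 66.0 ± 6.66 and 60.6 ± 3.82 RPKM. They therefore say little of low genes such as INO, at 2.42 ± 1.03 and 0.799 ± 0.709 RPKM. Of 11 tested genes of this list 5 fell (INO, WUS, ATS, SHP2 and SPL/NZZ), 2 rose (BEL1 and ANT) and 4 did not pass. The 5 became 2 without amiRNACWIN24 replicate 2 and 3 without WT replicate 2, WT replicate 3 or amiRNACWIN24 replicate 3. No gene of the 5 lists was at 0 in all WT libraries or in all amiRNACWIN24 libraries, so each had some reads in both genotypes. In pooled buds, fewer cells of a type and less RNA per cell cannot be told apart. The lists' part in the members' levels was not tested.

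The upstream sequences of the members were searched because the MIKC* genes themselves were lower. Of the 5 MIKC* genes measured, chosen for this after their values were seen, AGL66, AGL94 and AGL104 had log2 differences from -1.79 to -1.35. AGL66 was at 2.63, 3.31, 2.17 and 2.49 RPKM in the WT libraries, against 0.703, 0.499, 0.533 and 0.661 RPKM in amiRNACWIN24. AGL104 was at 7.27, 7.80, 6.08 and 6.66 RPKM in WT replicates 1 to 4 and 1.71, 1.48, 1.84 and 1.58 in amiRNACWIN24, also with no overlap. AGL30 fell by less, to 6.04 ± 0.603 from 8.01 ± 0.471 RPKM (limma adjusted p = 0.00625), and AGL65, at 2.36 ± 0.290 and 2.86 ± 0.393 RPKM, did not pass (adjusted p = 0.162).

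The CArG box form bound by MIKC* MADS proteins was found, on either strand, in the 250 bases upstream of the annotated start in 14 of the 105 members (13.3%). It was found in 1.68% of 17240 other genes with a WT mean of 2 RPKM or more, and in 2.06% of 32530 genes in all. In the 14 members the box nearest the start lay 45 to 150 bases upstream, with a median of 66.5, and 2 members held 2 boxes. The shares of 3 other motifs, searched on both strands, lay closer together. AGAAA, known from the pollen promoter LAT52 of tomato, was in 88.6% of members and 81.8% of other genes. GTGA, known from the tobacco pollen gene g10, was in 75.2% and 77.3%, and TATAAA in 46.7% and 45.5%. A match is a description of the sequence and shows no binding.

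**Figure D4:**
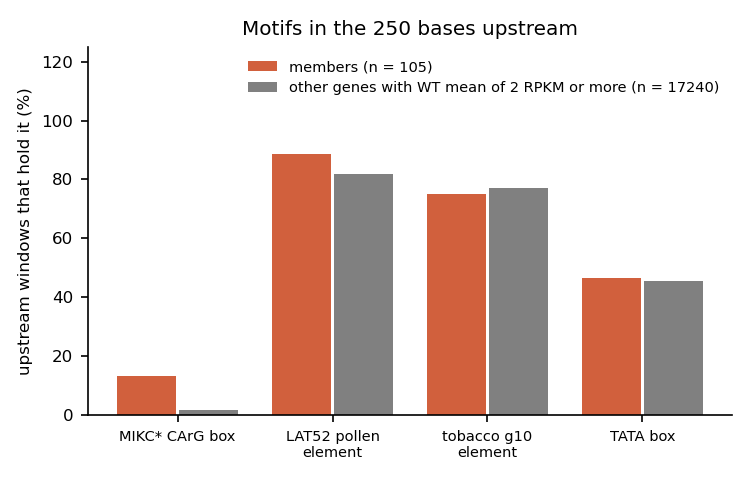
Share of 250-base upstream windows, in percent, that hold each motif on either strand, in members (orange) and in other genes with a WT mean of 2 RPKM or more (grey). The MIKC* CArG box is in 13.3% and 1.68% of windows, while the other 3 motifs differ by less than 7 percentage points.

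The windows of 5 members with the box are printed to show where it sits in an abundant LEA gene, an arabinogalactan peptide, both pollen actin depolymerizing factors and an SCR-like peptide. They are from the RefSeq TAIR10.1 assembly, 5′ to 3′ on the strand of the gene and ending at the base before the annotated start, with the box in capitals. The coordinates are chr5:21853098-21853347 (plus strand) for AT5G53820, chr3:7308963-7309212 (minus) for AGP40, chr4:13060251-13060500 (minus) for ADF7, chr5:21259409-21259658 (minus) for ADF10 and chr4:6312589-6312838 (minus) for SCRL20. None of these windows lies in another annotated gene.
AT5G53820: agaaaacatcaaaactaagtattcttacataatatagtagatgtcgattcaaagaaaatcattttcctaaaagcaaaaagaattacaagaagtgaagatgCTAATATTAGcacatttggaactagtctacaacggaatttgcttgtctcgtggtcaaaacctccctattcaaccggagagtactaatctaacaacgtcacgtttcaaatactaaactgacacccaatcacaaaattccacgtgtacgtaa
AGP40: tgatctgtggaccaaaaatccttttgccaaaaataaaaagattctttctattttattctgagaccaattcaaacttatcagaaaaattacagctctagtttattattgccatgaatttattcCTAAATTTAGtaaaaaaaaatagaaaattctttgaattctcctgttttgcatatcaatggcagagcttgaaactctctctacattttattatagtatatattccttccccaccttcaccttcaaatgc
ADF7: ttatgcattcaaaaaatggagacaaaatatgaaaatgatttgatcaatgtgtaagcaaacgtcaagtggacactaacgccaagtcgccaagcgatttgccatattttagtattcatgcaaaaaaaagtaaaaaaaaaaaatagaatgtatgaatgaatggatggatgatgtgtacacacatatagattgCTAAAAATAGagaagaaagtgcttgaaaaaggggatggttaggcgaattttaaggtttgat
ADF10: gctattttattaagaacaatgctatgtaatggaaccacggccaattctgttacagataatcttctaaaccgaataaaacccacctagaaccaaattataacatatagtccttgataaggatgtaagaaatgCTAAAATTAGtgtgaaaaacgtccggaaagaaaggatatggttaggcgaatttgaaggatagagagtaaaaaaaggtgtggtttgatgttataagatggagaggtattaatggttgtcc
SCRL20: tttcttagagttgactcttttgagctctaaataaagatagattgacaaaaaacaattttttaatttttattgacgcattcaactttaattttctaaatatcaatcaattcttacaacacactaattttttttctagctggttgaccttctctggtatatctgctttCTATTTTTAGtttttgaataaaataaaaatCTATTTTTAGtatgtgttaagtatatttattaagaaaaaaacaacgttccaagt

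In AT5G53820 the box began 150 bases upstream and in AGP40 128 bases upstream. SCRL20 held the same letters at 2 places, 84 and 54 bases upstream. ADF7 and ADF10 held boxes that differ, at 61 and 119 bases. Downstream of it both shared an identical run of 16 bases, atggttaggcgaattt, which began 27 bases upstream in ADF7 and 82 bases upstream in ADF10. PRF4 and PRF5, the pollen profilins, had no box of this form in their windows.

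The members were short and had few exons. Their median exon length was 927 nt, against 1770 nt in 17234 other genes with a WT mean of 2 RPKM or more, and their median coding length was 474 nt against 1158 nt. Genes with 1 or 2 exons were 61.0% of members and 24.1% of the others. Membership itself was sensitive to the trend of the values with exon length. With that trend removed 65 genes met the rule, 61 of them among the members. How far the trend adds to the short length of the members was not tested. By annotation 102 members code for proteins and 3 are long non-coding RNAs. Chromosome 3 held 28 members, which is 26.7% against 19.8% of the other genes.

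Some members were neighbours. There were 9 pairs within 20 kb, which involve 15 members. On chromosome 3 the DUF26 genes AT3G21945, CRRSP29, CRRSP30 and CRRSP35 and the receptor kinase-like gene AT3G21940 lay between 7729646 and 7765326. CRRSP29 was its highest gene, at 19.8, 29.9, 16.3 and 19.1 RPKM over the WT replicates and 3.24, 2.24, 2.26 and 1.62 RPKM over those of amiRNACWIN24. CRRSP24 (AT3G21960) in the same cluster lay just outside the rule; its product, like that of AT3G21940, does not name DUF26, so neither was counted in that family above. SCRL25 and SCRL24 lay close together on chromosome 4, with WT means of 30.0 and 5.55 RPKM. SCRL27 and AT5G45880, which are unrelated in sequence family, were 695 bases apart on chromosome 5.

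At the edge of the rule, AT3G48208, AT1G52343 and CML17 were just inside, at ratios of lowest WT to highest amiRNACWIN24 of 4.01, 4.01 and 4.05. CRRSP24, SCRL23 and AT3G07850 were just outside at 4.00, 3.99 and 3.98. SCRL23 had WT values of 5.28, 6.79, 1.09 and 2.28 RPKM and amiRNACWIN24 values of 0.217, 0.114, 0.274 and 0.0550 RPKM, a mean difference as wide as in many members. The SCRL and pectin lyase-like families thus have genes on both sides of the edge.

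The 8 members listed at 0 in every amiRNACWIN24 library were ADT6, AT1G38065, AT1G75785, AT3G08450, AT3G14340, LCR11, AT5G06665 and AT5G56985. With 0 set at 3 reads per library, which covers counting error only, the WT mean of AT1G38065 was at least 137-fold higher and that of AT3G14340 at least 42.1-fold higher. AT3G14340 was at 9.74, 18.4, 16.6 and 5.71 RPKM in WT. In the authors' deposited table its highest group mean was 0.0456, with an FDR of 0.592, so its WT level and this fold are uncertain. AT1G38065, annotated as an O-fucosyltransferase family protein, was at 4.07, 10.96, 9.70 and 9.66 RPKM in WT and overlaps no other gene. ADT6, an arogenate dehydratase of phenylalanine synthesis, was at 1.46, 6.09, 3.86 and 3.48 RPKM in WT. The authors' deposited table gives ADT6 a log2 fold change of -0.50, so the size of its fall is uncertain too.

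For 8 members the authors' deposited table of their own comparison differs from their RPKM table. It gives log2 fold changes of 1.36 for AT5G08820, 1.20 for AT1G75785, 0.68 for AT3G27415, 0.18 for AT5G56985, -0.03 for CPSUFE and -0.50 for ADT6, and no value for AT3G08450. AT3G14340 has -2.37 in the authors' deposited table with an FDR of 0.592, and a highest group mean of 0.0456 beside a WT mean of 12.6 in the RPKM table. All 8 overlap a gene on the other strand, CPSUFE by 1928 and ADT6 by 1756 bases of the gene span. In these genes the 2 tables hold different values, and the difference between the genotypes is therefore uncertain. In some it is the WT level that differs: the highest group mean in the authors' deposited table was 0.0606 for AT5G08820, 0.0477 for AT1G75785 and 0 for AT3G08450, beside WT means of 11.3, 2.02 and 2.19 RPKM. In CPSUFE and ADT6 that table's highest group mean, 12.6 and 7.40, was above the WT mean of 4.43 and 3.72 RPKM. In the authors' deposited table the other 97 members had log2 fold changes from -11.77 to -2.56 (median -3.71) and an FDR under 0.05. These include all 85 members that overlap no other gene. The rule used the same contrast, so the count is no separate support for the difference. AT4G18596 is 1 of the 97, at -3.20, but its highest group mean in the authors' deposited table was 0.601 beside a WT mean of 4.66 RPKM.

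**Figure D5:**
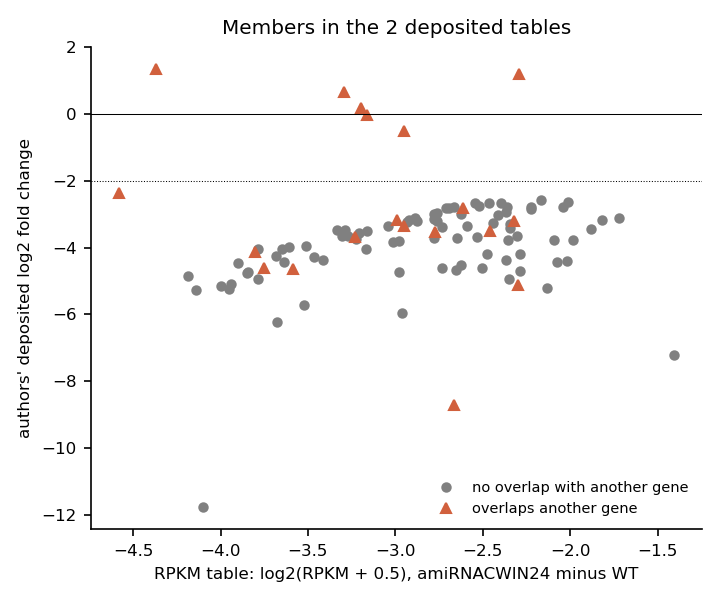
The log2 fold change in the authors' deposited table against the difference of log2(RPKM + 0.5) from the RPKM table, 1 point per member with a value in both. Members that overlap another gene are orange triangles; 6 of them lie above the dotted line at -2, and AT3G14340 lies just below it at -2.37.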

How the data were processed

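Total RNA of pooled buds (stages 8 to 10) was sequenced as 125 bp paired ends on an Illumina instrument, per the labels' protocols. The submitters' processing notes name TAIR10 as the build; what aligned and counted the reads, and with which strand setting and annotation, is not given in the sources used here. The authors deposited RPKM values for 8 libraries and 33977 genes, and their own comparison of the genotypes, in which the fold change and log2 fold change are scores that hold some error marks, with no value for 8097 genes. Of the genes, 32548 matched the TAIR10.1 annotation and 32532 had its coordinates.

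Members and lists were chosen with earlier results of these data known. Genes to name were taken from the 15 members with the highest WT mean, the 10 with the largest ratio and those at 0 in amiRNACWIN24. Neighbours within 20 kb, families with 3 or more members, 3 genes on each side of the edge and up to 3 genes per list by p were also used. Not every gene of these sets is named in the text. Other genes named (such as profilins, actin depolymerizing factors, pump and channel isoforms, 14-3-3 proteins, RALFL4, MGH3, RIC3, their relatives, ANX1, and the MIKC* genes) and the families, taken from words in RefSeq products, were chosen after their values were seen. Windows of 250 bases were read from TAIR10.1, whose nuclear coordinates matched.

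RPKM steps gave whole reads within 0.05 reads for 99.6% to 99.7% of low values per library, so reads per gene were recovered; a 0 allows up to 3 reads. For genes that are not members, log2(RPKM + 0.5) was compared with limma 3.58.1 in R 4.3.3 (two-sided moderated test with trend, genotype only) over 19082 genes whose mean reached 1 RPKM, with Benjamini-Hochberg adjustment and a threshold of 0.05. The labels call the replicates biological and give no batch. The procedure was tested on simulated data before use. Alternatives were other pseudocounts, filters and scalings, removal of the exon length trend, a replicate block, each library left out, and, chosen after seeing the data, voom on the recovered reads, leaving out overlapping genes from the fit and, for the members, leaving out WT replicates 1 and 2 or asking for -2 in the authors' table. Python 3.11.15, numpy 2.4.6, pandas 2.3.3 and matplotlib 3.10.9 were used.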

Additional observations from a re-analysis of the deposited data

Results flagged for a closer look

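Groups of 4 libraries were tested for a single library far from the other 3, over the 60 members picked by rule for naming, by genotype. Of 112 groups 7 had one, where chance gives about 1 in 20, or 5.6 groups. In WT, LCR11 was at 12.7 RPKM in replicate 1 and at 0.0586 to 0.238 RPKM in the others, and PRF4 was at 66.8 RPKM in replicate 2 and at 44.1 to 45.3 RPKM in the others. CML17 was at 13.3 RPKM in WT replicate 2 and 8.57 to 9.17 RPKM in the others, and AT3G48208 at 2.25 RPKM in WT replicate 1 and 5.06 to 5.41 RPKM in the others.

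In amiRNACWIN24, CRRSP35 was at 0.0674 RPKM in replicate 4 and 0.244 to 0.269 RPKM in the others. CPSUFE was at 0.0406 RPKM, a single read, in amiRNACWIN24 replicate 2 and at 0 in the others, and AT5G08820 at 0.239 RPKM, 6 reads, in replicate 3 and at 0 in the others.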

How the results depend on the processing

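The number of genes meeting the rule was 105. It was 185 at more than 3 times and 13 at more than 8 times, 65 with the exon length trend removed (61 of them among the 105), and 50 with 0.5 added before the ratio (all among the 105). Leaving out single libraries gave 98 to 176, the highest without WT replicate 3. With median-of-ratios scaling 115 genes met it, all 105 included, and without WT replicates 1 and 2 there were 100, 87 of them among the 105. The rule sets every WT library of a member above every amiRNACWIN24 library, so the direction was largely fixed in advance. The log2 difference of the 60 members picked by rule for naming was reversed in none of the alternatives run for it. Its size moved by more than the spread between replicates in 34 with the length trend removed and 30 with a pseudocount of 0.1. It did so in 21 with a pseudocount of 1 and in 16 of 49 without WT replicates 1 and 2.

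With members counted, 14 late pollen and 2 sperm cell genes fell. With a minimum mean of 5 RPKM, 8 late pollen genes fell and 0 rose, 0 sperm cell genes fell and 3 ovule genes fell. With the length trend removed, 2877 genes rose in place of 5611, and 0 late pollen and 3 tapetum genes rose, while 3 ovule genes fell and 1 rose. Without overlapping genes 2635 genes fell in place of 3998, 0 late pollen genes rose and 1 sperm cell gene fell. Leaving out single libraries gave 4 to 13 tapetum genes that rose and 2 to 5 ovule genes that fell, and leaving out WT replicates 1 and 2 gave 3 tapetum genes that rose. The cause of these shifts was not tested, other than that fewer genes are tested under the higher minimum and without overlaps.

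Replicate numbers do not pair the libraries: the deviations of same-numbered libraries correlated at -0.27, 0.14, -0.32 and 0.53, and WT replicate 1 correlated best with amiRNACWIN24 replicate 2. With the replicate block 3590 genes fell and 5581 rose. Levels under about 0.1 RPKM rest on a few reads in short genes, which limits ratios of the lowest members.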
